A study of Mus musculus with 9 samples.

Results

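Sphingosine-1-phosphate (S1P) is a lipid that circulates in blood and lymph and acts on cells through G protein-coupled receptors. Sphingosine kinase makes it inside the cell, a transporter releases it, receptors read it at the cell surface, and lipid phosphate phosphatases outside the cell remove its phosphate. In endothelium S1P is known for tightening the junctions between cells and for restraining vessel sprouting. The genes followed here were 7 of the 21887 protein-coding mouse genes in the annotation: the receptors S1pr1, S1pr2 and S1pr3, the kinase Sphk1, the transporter Spns2, and the phosphatases Plpp1 and Plpp3. They were taken as a list by name.

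Open chromatin was mapped by ATAC-seq, a method in which a transposase inserts sequencing tags into accessible DNA, in endothelial cells sorted by flow cytometry from mouse lung. Each of the 3 ages, infant, young adult and mature adult, had 3 libraries. Ages in days, strain, genotype, sex and the sorting marker are not in the labels. Nor do they tell separate from pooled animals, and p-values here reflect only how far these libraries spread, which may be technical. The title and design text ask how chromatin changes as lung endothelium passes from growing vessels to a quiescent adult state.

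The values were lists of peaks, the intervals called open, with no height or read number. The lists held 59793 to 94646 peaks, and all 3 infant lists were longer than all 6 adult lists. The narrowest peak of each list was 150 bp wide, so peaks near that width lie at the floor of what the lists hold. Of each list, 90.5% to 93.6% was assigned to a gene. Narrower peaks set apart young adult replicate 3 and mature adult replicate 1 (mean widths of 487 and 495 bp, against 530 to 564 bp in the other 7 libraries), so results that rest on them are also given without them. Because the lists differ in length, each peak number was tested after scaling to the library's total and again unscaled. The median gene's log2 difference between young adult and infant libraries was 0.13 scaled and -0.25 unscaled, and between mature adult and infant libraries it was 0.14 scaled and -0.31 unscaled. A gene is said to have risen or fallen with age only where its peak number passed the test on both scales. Depth is unknown, so a missing peak does not show closed chromatin, and in bulk samples fewer cells of a type and less accessibility per cell cannot be told apart.

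The stretches just before 4 gene starts are shown because they mark where the peaks did or did not reach: the start of S1pr2 and of Plpp3 lay under a peak in all 9 libraries, the listed start of Spns2 in none, and the start of S1pr3 in the infant and young adult libraries but in no mature adult library. The listed Spns2 start lies inside the annotated gene, whose 5′ end on the minus strand did lie under a peak in all 9 libraries. S1pr3 was added after its values were seen. Each sequence is the 250 bases before the start, read 5′ to 3′ on the gene's strand, from RefSeq (GRCm38.p6, the same build as mm10). Capitals mark matches to the motifs searched, on either strand. The table held starts for 5 of the 7 genes; S1pr1 and Plpp1 were not matched.
S1pr2, chr9:20976794-20977043, minus strand: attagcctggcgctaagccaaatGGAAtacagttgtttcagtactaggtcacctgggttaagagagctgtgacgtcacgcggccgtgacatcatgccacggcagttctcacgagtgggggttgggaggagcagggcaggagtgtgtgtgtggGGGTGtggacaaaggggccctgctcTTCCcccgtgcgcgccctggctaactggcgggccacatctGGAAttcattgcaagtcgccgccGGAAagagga
S1pr3, chr13:51408368-51408617, plus strand: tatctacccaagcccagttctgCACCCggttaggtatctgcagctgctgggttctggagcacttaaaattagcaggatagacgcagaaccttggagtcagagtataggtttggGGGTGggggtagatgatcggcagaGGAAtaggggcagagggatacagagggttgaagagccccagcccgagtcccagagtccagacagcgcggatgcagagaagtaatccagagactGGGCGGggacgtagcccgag
Spns2, chr11:72475028-72475277, minus strand: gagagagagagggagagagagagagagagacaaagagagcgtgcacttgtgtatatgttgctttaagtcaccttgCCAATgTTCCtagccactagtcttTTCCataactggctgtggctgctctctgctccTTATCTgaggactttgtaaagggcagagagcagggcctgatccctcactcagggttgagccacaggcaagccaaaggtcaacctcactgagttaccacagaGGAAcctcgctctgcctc
Plpp3, chr4:105157097-105157346, plus strand: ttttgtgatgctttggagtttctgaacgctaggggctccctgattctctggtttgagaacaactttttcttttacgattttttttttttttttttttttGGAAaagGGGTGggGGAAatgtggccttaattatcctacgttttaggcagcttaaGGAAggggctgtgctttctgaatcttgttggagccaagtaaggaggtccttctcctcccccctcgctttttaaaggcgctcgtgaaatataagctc

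The S1pr2 and S1pr3 stretches were the richer in G and C, at 59.2% and 56.4%, with 14 and 9 CpG dinucleotides. The Plpp3 stretch was AT-rich, with 42.4% G and C and 6 CpG, and the Spns2 stretch had 51.6% and 2 CpG. The medians over 32851 promoter stretches of the same length were 52.4% and 6 CpG. The core of ETS-factor sites, GGAA, was found 4 times in S1pr2, 1 time in S1pr3, 3 times in Spns2 and 3 times in Plpp3, but 93.4% of all such stretches hold it. CACCC, a core bound by KLF factors, occurred 1 time in S1pr2, 2 times in S1pr3 and 1 time in Plpp3, against 52.0% of all stretches with at least 1 match. S1pr3 alone of the 4 held the GC box GGGCGG, which 32.7% of all stretches hold and which here ended 15 bases before the start. Spns2 held CCAAT and the GATA-factor motif AGATAA, present in 33.8% and 9.99% of all stretches. None of the 4 held CGGAAG (a longer ETS site that contains GGAA, 13.6% of all stretches), TGANTCA (AP-1, 6.75%), ACAAT (SOX, 27.7%), TGTTTAC (FOX, 3.17%), TATAAA (12.4%) or ACGTG (HIF, 16.6%). A match is only a description of the letters, and a missing match says only that those letters are not in that window.

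**Figure D1:**
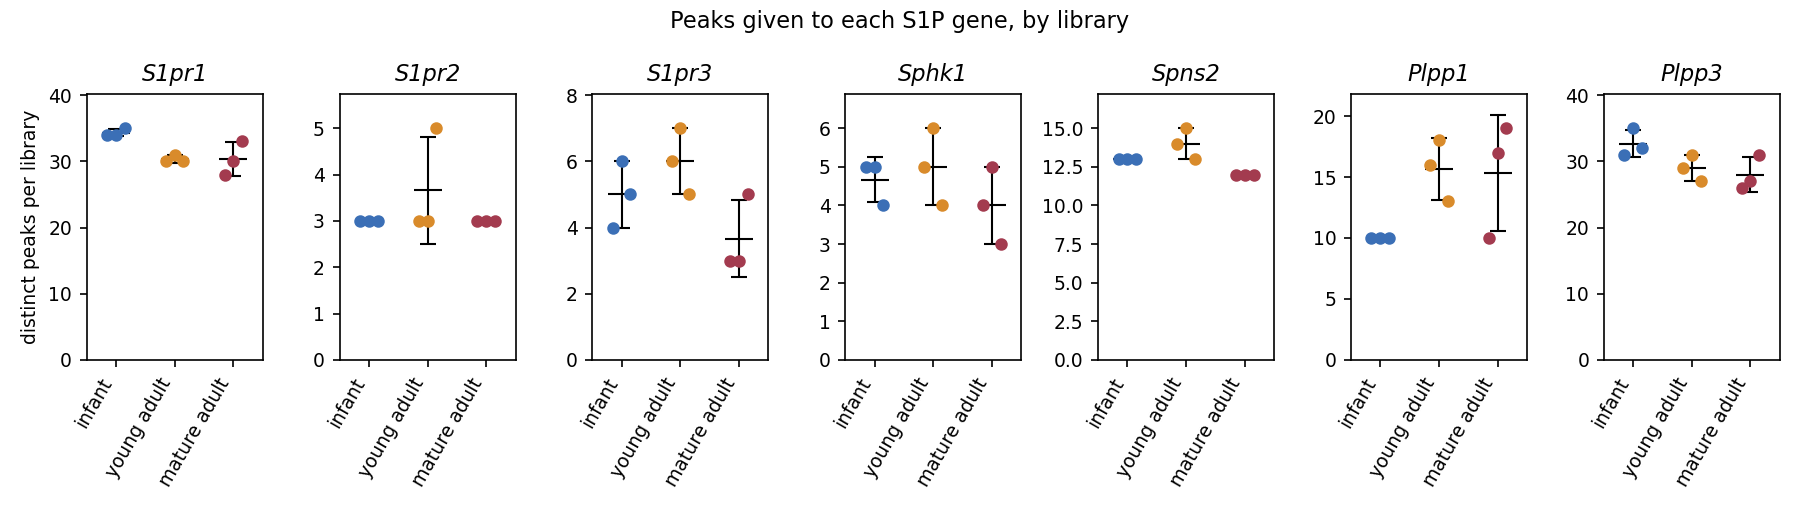
Number of peaks (y axis, peaks per library, linear) at each of the 7 genes in the 3 infant, 3 young adult and 3 mature adult libraries; points are libraries, horizontal marks are the means of an age and vertical bars their SD (n = 3). Plpp1 is the gene whose infant libraries sit together at 10 peaks with 5 of 6 adult libraries above them, and S1pr1 the gene whose infant libraries, at 34 and 35, lie above every adult library.

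S1pr1 is the main S1P receptor of endothelium, where it signals through inhibitory G proteins and strengthens the barrier. The gene (chr3:115710433-115715055, 4623 bp) is short, yet 39 merged regions were assigned to it, only 3 of them inside the gene, and 24 were open in all 9 libraries. S1pr1 had 34, 34 and 35 peaks in infants, 30, 31 and 30 in young adults, and 28, 30 and 33 in mature adults. Every infant library was above every adult library, and the adult ages overlapped. Scaled for the shorter adult lists, the direction turned. Scaled, S1pr1 was higher in young adult than in infant libraries by a log2 difference of 0.24 (SE 0.05, limma adjusted p = 0.0103), and unscaled the difference was -0.18 (adjusted p = 0.0796). Between mature adult and infant libraries it was 0.36 scaled (SE 0.05, adjusted p = 0.00112) and -0.18 unscaled (adjusted p = 0.0531). S1pr1 therefore counts neither as risen nor as fallen, although the scaled calls held with any single library left out.

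A broad region of 1 or 2 peaks per library lay 68296 bp below the gene (chr3:115641310-115642964), with a covered length of 1618, 1405 and 1571 bp in infant, 1391, 1278 and 1136 bp in young adult, and 1266, 1160 and 1306 bp in mature adult libraries. A region 36843 bp below the gene (chr3:115673042-115674138) varied little before centring, with 1059 to 1096 bp over the 9 libraries. With widths centred on each library's median, that region was called wider in mature adult than in infant libraries (log2 difference 0.29, limma adjusted p = 0.0252). Both were chosen after their values were seen. Closer in, the region across the higher end of the gene (chr3:115714202-115715651) was wider in infants, with 1017, 821 and 695 bp in young adult and 772, 853 and 808 bp in mature adult libraries, against 1038, 1150 and 1257 bp in infant libraries. All mature adult libraries were below all infant libraries. The log2 width difference between mature adult and infant libraries was -0.50 (SE 0.13, limma adjusted p = 0.0399). It did not pass once widths were centred on each library's median (-0.22, adjusted p = 0.201), nor with any infant or any mature adult library left out (adjusted p between 0.0642 and 0.109) or with young adult replicate 2 left out (0.0578). On the other side of the gene, 57851 bp above its higher end, S1pr1 had a region open only in adults (chr3:115772763-115773049). Its covered length was 242, 272 and 259 bp in young adult and 270, 252 and 275 bp in mature adult libraries, against no peak in the 3 infant libraries. It lies among regions open in all libraries, and on the gene's side of it, 51248 bp from the gene end, is chr3:115765947-115766660, which covered 618, 584 and 624 bp in young adult libraries against 402, 281 and 299 bp in infant libraries. That widening had a log2 difference of 0.91 (SE 0.22, adjusted p = 0.0498), and 1.11 after centring (adjusted p = 0.0156). Uncentred, the call was lost in every fit that left out 1 library except the fit without mature adult replicate 1 (adjusted p up to 0.139). Further S1pr1 regions were called wider in mature adult than in infant libraries only after centring, and none was called narrower after it. Examples are chr3:115779205-115780392 (0.62, adjusted p = 0.0111, and uncentred 0.34, 0.0553) and chr3:115788493-115789532 (0.43, adjusted p = 0.00967, and uncentred 0.15, 0.0601).

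**Figure D2:**
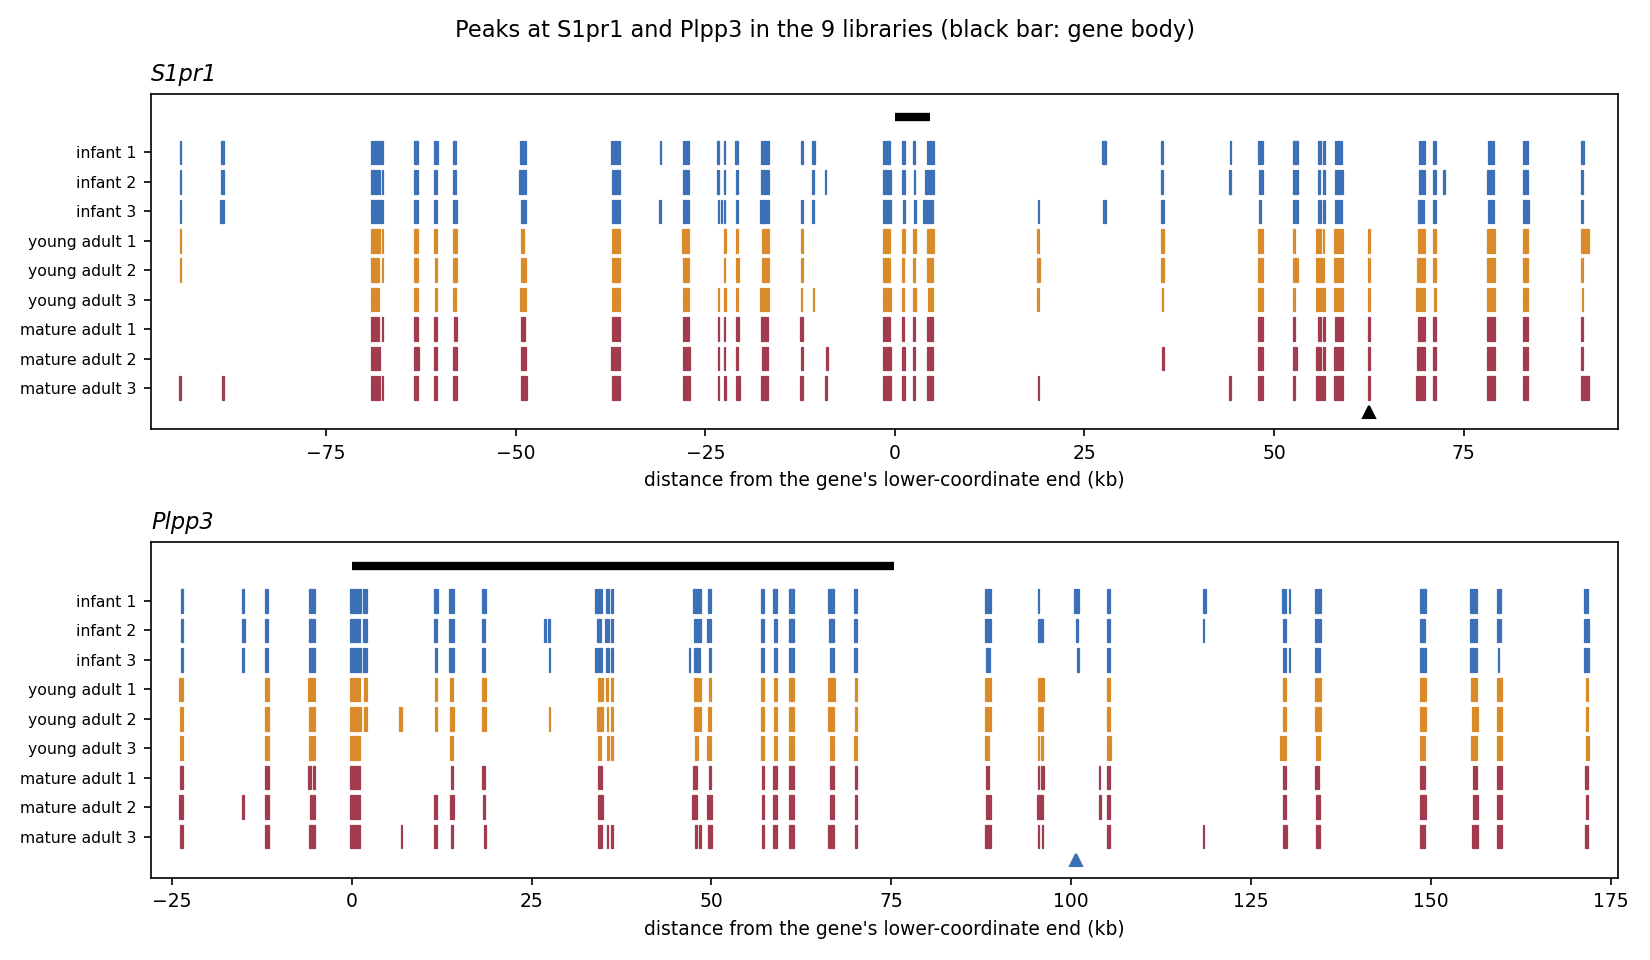
Peaks given to S1pr1 (top) and Plpp3 (bottom) in each library, 1 row per library, drawn at their distance in kb from the lower end of the gene in coordinate order; the black bar is the gene body. A black triangle marks a region open in all 6 adult and no infant library, and a blue triangle a region open in all 3 infant and no adult library. Most S1pr1 peaks stand in columns that run through all 9 rows on both sides of a gene body that holds only 3 regions.

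S1pr2, a receptor known for opposing the S1pr1 barrier effect, had the same regions open at every age. The gene (chr9:20965952-20976793) carried 3 regions, and all were open in all 9 libraries. S1pr2 had 3 peaks in each infant library, 3, 3 and 5 in the young adult libraries, and 3 in each mature adult library. The libraries differed in young adult replicate 3 alone, whose 5 peaks lay in the same 3 regions as those of the other libraries. After scaling the young adult libraries were higher than the infant libraries by 0.58 (SE 0.18, limma adjusted p = 0.0373), but unscaled by 0.22 (adjusted p = 0.442), and the scaled call was lost with any infant or any mature adult library left out (adjusted p between 0.0542 and 0.0991). Mature adult against infant libraries gave 0.47 scaled (adjusted p = 0.0663, and 0.001 without young adult replicate 3) and 0 unscaled. With 3 peaks in every library of these ages, that scaled difference reflects list length alone. The peak over the S1pr2 start, which covers all or part of the sequence printed above, was 753, 839 and 288 bp in young adult and 827, 813 and 847 bp in mature adult libraries, against 892, 782 and 789 bp in infant libraries. It reached 136 to 266 bp upstream of the start. Without young adult replicate 3 the peak widths at the start overlapped between all ages.

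S1pr3 couples to several G proteins and is known in vascular smooth muscle as well as endothelium. Its gene (chr13:51408618-51422797) had the fewest peaks of the 7 per 100 kb of DNA that could be given to it, a mean of 4.27 against 12.3 to 30.7 for the other 6. That DNA reached 100000 bp below the gene and 291 bp above it, so the value does not describe the gene body alone. S1pr3 had 4, 6 and 5 peaks in infant, 6, 7 and 5 in young adult, and 3, 3 and 5 in mature adult libraries. The ages overlapped. None of the differences passed the test. Young adult minus infant was 0.63 scaled (adjusted p = 0.0701, passing without mature adult replicate 3 at 0.0353 and with equal numbers of widest peaks at 0.0348), mature adult minus infant 0.07 (adjusted p = 0.822), and mature adult minus young adult -0.56 (adjusted p = 0.234).

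The ages differed in where the S1pr3 peaks lay. The region over its start (chr13:51408486-51409177) was 598, 691 and 469 bp wide in infant libraries and 305, 490 and 305 bp in young adult libraries. No mature adult library had a peak there. The peaks reached 33 to 132 bp before the start, so they covered the GC box in the printed sequence, and 260 to 559 bp after it. Of the 136 regions at the 7 genes this was the only one open in all infant and young adult libraries and in no mature adult library, a class that holds 0.602% of all 126907 regions. Among 10713 start windows with a peak in all 6 of those libraries, 55 (0.513%) had none in any mature adult library, and the S1pr3 window was among them. Upstream, a region centred 10043 bp before the start (chr13:51398376-51398773) was open in adults only. It covered 383, 389 and 350 bp in young adult and 369, 374 and 271 bp in mature adult libraries, against no peak in infant libraries. Only 1 S1pr3 region, inside the gene (chr13:51417762-51419000), was open in all 9 libraries. Its covered length was 854, 915 and 1032 bp in young adult and 623, 1040 and 801 bp in mature adult libraries, against 1136, 1052 and 1119 bp in infant libraries. All adult libraries were below the infant range, but the log2 difference between mature adult and infant libraries, -0.46 (SE 0.17), had an adjusted p of 0.0918. These patterns of presence have no test, and both are unchanged when young adult replicate 3 and mature adult replicate 1 are disregarded.

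**Figure D3:**
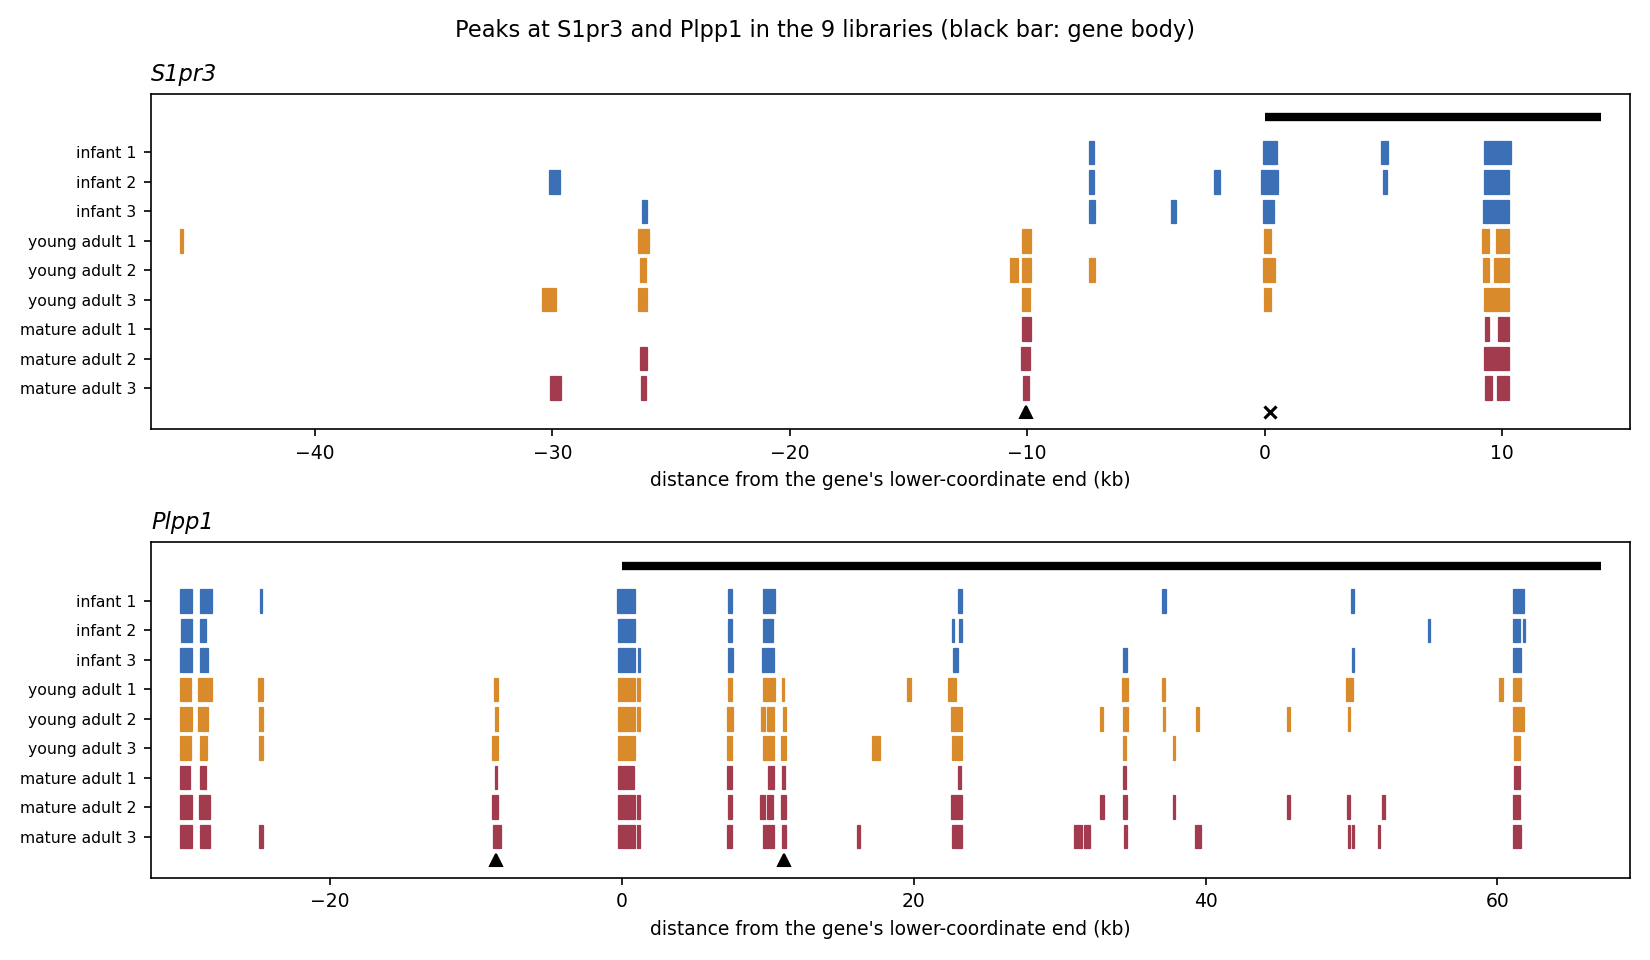
Peaks given to S1pr3 (top) and Plpp1 (bottom) in each library, drawn at their distance in kb from the lower end of the gene, which is the S1pr3 start; the black bar is the gene body. Black triangles mark regions open in all 6 adult and no infant library, and the x marks the S1pr3 start region, open in the 6 infant and young adult libraries and in none of the 3 mature adult libraries.

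Sphk1 phosphorylates sphingosine to S1P. The gene (chr11:116530836-116536675) had 5 regions and 4.56 peaks per library on average: 5, 5 and 4 in infant, 5, 6 and 4 in young adult, and 4, 5 and 3 in mature adult libraries. The ages overlapped, and the scaled differences from infant libraries were 0.46 in young adult (SE 0.20, adjusted p = 0.110, and 0.0291 with only peaks within 10 kb of a gene) and 0.27 in mature adult libraries (SE 0.20, adjusted p = 0.298). Regions open in all 9 libraries were a wide one inside the gene (chr11:116532685-116534759) and a narrower one 6886 bp below it (chr11:116523584-116524315). The wide region covered 1463, 1415 and 581 bp in young adult and 1007, 1455 and 1446 bp in mature adult libraries, against 1742, 1893 and 1849 bp in infant libraries. All 6 adult values lay below the infant range, and the log2 differences did not pass the test: -0.78 (SE 0.34, adjusted p = 0.194) in young adult and -0.51 (SE 0.34, adjusted p = 0.296) in mature adult against infant libraries. Sphk1 has 5 listed starts, and no start lay under a peak in all libraries: the windows around them had a peak in 0, 5, 5, 1 and 1 of the 9 libraries.

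Spns2 carries S1P out of endothelial cells and is a known source of S1P for lymph and tissue. Its gene (chr11:72451638-72489976) had the most peaks of the 7 per 100 kb of DNA that could be given to it, at 30.7. That DNA reached 0 bp below and 4082 bp above the gene, and the ranking depends on how much flanking DNA each gene is given. Of the 15 Spns2 regions, 12 were open in all 9 libraries. Spns2 had 13 peaks in each infant library, 14, 15 and 13 in young adult libraries, and 12 in each mature adult library. The mature adult libraries lay below all others by at least 1 peak, and the young adult and infant libraries met at 13. Scaled, Spns2 was higher than in infant libraries by 0.51 in young adult (SE 0.06, limma adjusted p = 0.000734) and by 0.42 in mature adult libraries (SE 0.06, adjusted p = 0.00101). Unscaled, the differences were 0.10 (adjusted p = 0.191) and -0.11 (adjusted p = 0.119), so the direction in mature adults turned with the scale. The scaled calls held with any single library left out. With the narrow-peaked libraries (young adult replicate 3, mature adult replicate 1) left out, the unscaled young adult difference was 0.15 (adjusted p = 0.0398), and mature adult minus young adult was -0.26 unscaled (adjusted p = 0.0314) and -0.17 scaled (adjusted p = 0.289). This unscaled check was chosen after seeing the data. Equal numbers within the infant and mature adult libraries left little spread (SE 0.03). In it 1.17% of 14671 genes were higher in young adult than in infant libraries, and 491 genes differed between the adult ages.

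The start of Spns2 printed above lies inside the longer gene of the annotation and had no peak in any library, as in 39.9% of 21263 start windows. Because the gene is on the minus strand, its higher end is its 5′ end. That end had a narrow region in all 9 libraries (chr11:72489780-72490274), with 486, 479 and 471 bp in young adult and 435, 441 and 450 bp in mature adult libraries, against 430, 426 and 417 bp in infant libraries. Its width differences, 0.17 and 0.06, did not pass the test (adjusted p = 0.218 and 0.607). Within the gene, 3 regions were narrower in mature adult than in infant libraries. The widest of them (chr11:72457772-72458768) covered 767, 659 and 698 bp in mature adult libraries, against 941, 969 and 988 bp in infant libraries (log2 difference -0.45, SE 0.09, adjusted p = 0.0129). The others began at 72468949 (-0.28, adjusted p = 0.0286) and 72487103 (-0.46, adjusted p = 0.0233). None of the 3 passed after centring, where the differences were -0.18, -0.01 and -0.19, and the last 2 also lost the call with each infant library, with mature adult replicate 3 and with mature adult replicate 1 or 2 left out. A region near the lower end (chr11:72455734-72455921), named after its values were seen, had 161, 176 and 150 bp in the young adult libraries and no peak in infant or mature adult libraries. Those peaks were at or near the 150 bp minimum width of the lists.

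Plpp1 is a phosphatase with an outward-facing active site that dephosphorylates S1P and lysophosphatidic acid. Its differences from infant libraries were the largest of the 7 genes on both scales. The gene (chr13:112800777-112867894, 67118 bp) had 10 peaks in each of the 3 infant libraries, 16, 18 and 13 in young adult, and 10, 17 and 19 in mature adult libraries. All young adult libraries and 2 of 3 mature adult libraries were above the infant number, and mature adult replicate 1 equalled it. The libraries that stood apart, young adult replicate 3 and mature adult replicate 1, were the lowest of their ages. Scaled to the library total, Plpp1 averaged 17.0 in young adult and 18.0 in mature adult libraries, against 8.10 in infant libraries. The log2 differences were 1.02 in young adult (SE 0.21, limma adjusted p = 0.00755) and 1.07 in mature adult against infant libraries (SE 0.21, adjusted p = 0.00513). Unscaled they were 0.61 (SE 0.24, adjusted p = 0.132) and 0.54 (SE 0.24, adjusted p = 0.139). Without the 2 libraries the unscaled differences passed as well, at 0.73 (SE 0.07, adjusted p = 0.00407) and 0.82 (SE 0.07, adjusted p = 0.00221), a check chosen after seeing the data. In that check 1.17% of 14671 genes were higher in young adult and 1.66% in mature adult libraries. The scaled calls held with any single library left out. Mature adult minus young adult was 0.05 scaled (SE 0.21, adjusted p = 0.887).

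Of 27 Plpp1 regions 23 lay inside the gene, 7 were open in all 9 libraries and 9 in only 1 library. The region across the lower end of the gene (chr13:112800418-112801663) was narrower by a small amount in every adult library, with 1158, 1140 and 1125 bp in young adult and 1120, 1144 and 1123 bp in mature adult libraries, against 1245, 1169 and 1182 bp in infant libraries, and the log2 differences of -0.07 and -0.09 did not pass the test (adjusted p = 0.279 and 0.141). Open in adults only were 2 regions. The first, 8623 bp outside the lower end (chr13:112791839-112792468), covered 269, 206 and 391 bp in young adult and 150, 440 and 497 bp in mature adult libraries, and was without a peak in infant libraries. The second, 11074 bp inside the gene (chr13:112811683-112812019), covered 155, 226 and 336 bp in young adult and 227, 312 and 244 bp in mature adult libraries, again with no infant peak. The lowest values, 150 bp in the first and 155 bp in the second, were at or near the minimum peak width. A further region 32609 bp from the gene's higher end (chr13:112835080-112835489), named after its values were seen, was open in all 6 adult libraries and in infant replicate 3. The 9 regions seen in 1 library were 4 in mature adult replicate 3, 2 in young adult replicate 1, and 1 each in infant replicate 2, young adult replicate 3 and mature adult replicate 2.

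Plpp3 is the related phosphatase of endothelium and smooth muscle, known for limiting lysophospholipid signals on the vessel wall. The gene (chr4:105157347-105232767, 75421 bp) had 36 regions, 19 of them inside it and 21 open in all 9 libraries. Plpp3 had 31, 35 and 32 peaks in infant, 29, 31 and 27 in young adult, and 26, 27 and 31 in mature adult libraries. The ages met at 31 peaks. Scaled, mature adult libraries were higher than infant libraries by 0.32 (SE 0.09, limma adjusted p = 0.0195), a call lost without infant replicate 1 (adjusted p = 0.0619) or mature adult replicate 3 (adjusted p = 0.0553). Unscaled the difference was -0.22 (adjusted p = 0.101). Young adult minus infant was 0.25 scaled (adjusted p = 0.0589, passing without infant replicate 2 at 0.0418 or mature adult replicate 3 at 0.0443) and -0.17 unscaled (adjusted p = 0.229). The start peak, over the AT-rich sequence printed above, was 1401, 1546 and 1409 bp in young adult and 1408, 1428 and 1467 bp in mature adult libraries, against 1563, 1431 and 1610 bp in infant libraries, and it reached 211 to 297 bp upstream. The log2 difference was -0.08 in young adult and -0.10 in mature adult libraries (adjusted p = 0.406 and 0.252).

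Plpp3 held the 1 region of the 7 genes that was open in infants only, 25300 bp beyond the gene's higher end (chr4:105257665-105258469). It covered 735, 314 and 293 bp in the infant libraries and had no peak in any adult library. Inside the gene, next to the start region, a further region (chr4:105158880-105159464, named after its values were seen) had 538, 572 and 528 bp in infant libraries and 373 and 393 bp in young adult replicates 1 and 2. It had no peak in young adult replicate 3 or in any mature adult library. The width calls at Plpp3 went both ways. The region 96202 bp beyond the gene (chr4:105328566-105329373) was narrower in adults, with 292, 385 and 348 bp in young adult and 286, 218 and 331 bp in mature adult libraries, against 670, 713 and 705 bp in infant libraries. All adult values were under all infant values. Its log2 differences were -1.04 (SE 0.17, adjusted p = 0.0143) in young adult and -1.34 (SE 0.17, adjusted p = 0.00355) in mature adult against infant libraries, and the second passed with every single library left out and after centring (-1.07, adjusted p = 0.0109). The young adult call was lost without infant replicate 1 (0.0503) or infant replicate 2 (0.0509). A region 23662 bp below the gene (chr4:105133413-105133957) was wider in adults, with 539, 499 and 467 bp in young adult and 441, 485 and 428 bp in mature adult libraries, against 359, 356 and 293 bp in infant libraries. Its differences were 0.58 (adjusted p = 0.0301) and 0.43 (adjusted p = 0.0442), and the mature adult call was lost with any single library left out other than young adult replicate 3 (adjusted p up to 0.104), the young adult call with any infant library or young adult replicate 1 or 2 left out (up to 0.0826). The other Plpp3 calls between mature adult and infant libraries were 3 narrower regions, beginning at 105170908 (-0.60, adjusted p = 0.0154), 105214267 (-0.58, adjusted p = 0.0201) and 105312724 (-0.60, adjusted p = 0.0095), and 1 wider region beginning at 105145247 (0.51, adjusted p = 0.0264). Only the call at 105312724 held with any single library left out. Centring ended the calls at 105170908 (-0.33, adjusted p = 0.133) and 105214267 (-0.31, adjusted p = 0.163), and leaving out the narrow-peaked libraries ended that at 105214267 (0.0579) and both calls at 105133413 (0.0548 and 0.0777). Those at 105133413 (0.78 and 0.71, adjusted p = 0.0126 and 0.0108), 105145247 (0.78, 0.0183) and 105312724 (-0.32, 0.0438) passed after centring. A region beginning at 105316532 was called wider in mature adult libraries only after centring (1.33, adjusted p = 0.0403, and uncentred 1.06, 0.106). The region at 105170908 was also called narrower in young adult libraries (-0.59, adjusted p = 0.0295), a call lost with any infant or any young adult library left out (up to 0.0904), without the narrow-peaked libraries (0.0592) and after centring (-0.39, adjusted p = 0.136).

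**Figure D4:**
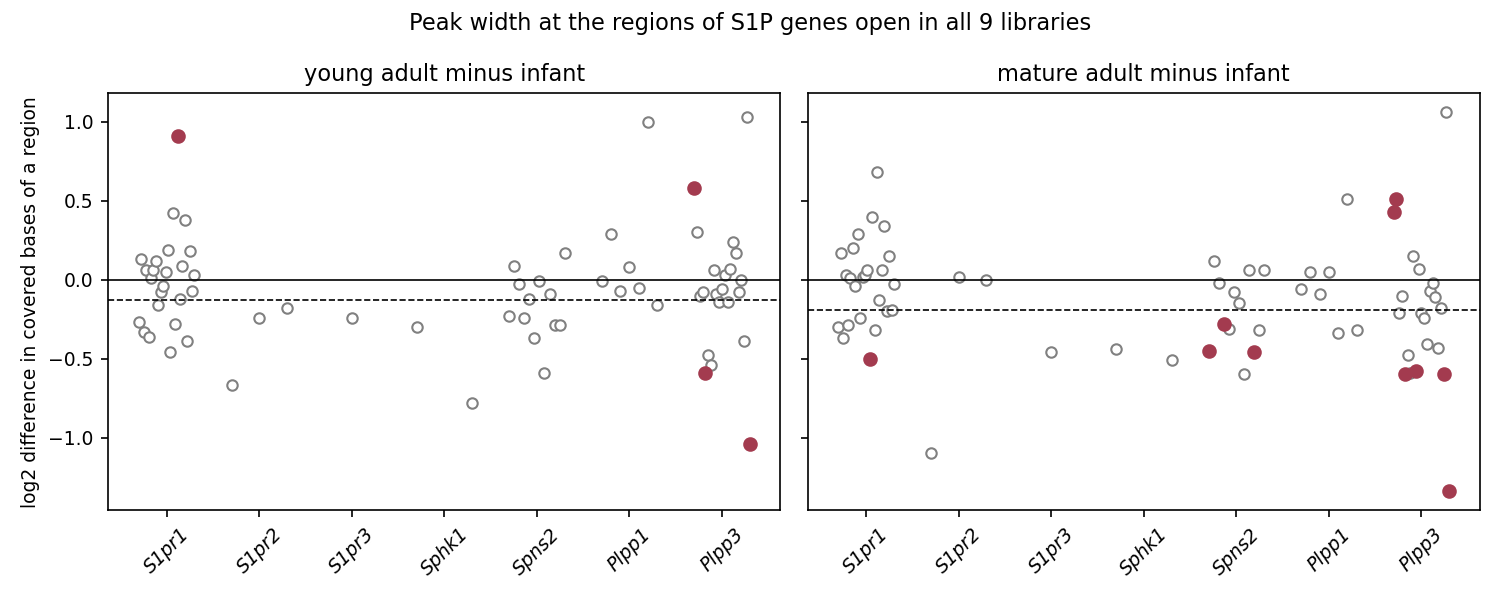
Log2 difference in covered bases (y axis) of the 70 regions of the 7 genes open in all 9 libraries, young adult minus infant (left) and mature adult minus infant (right), by gene on the x axis and in coordinate order within a gene; each point is a region, filled red where the limma adjusted p passed the threshold, and the dashed line is the median of all 41144 such regions, at -0.13 and -0.19. Filled points are 4 on the left and 10 on the right, and the lowest on each side is the Plpp3 region 96202 bp beyond the gene, at -1.04 and -1.34.

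Counted together, 4 of the 7 genes had more peaks after scaling in young adult than in infant libraries (S1pr1, S1pr2, Spns2 and Plpp1) and 0 had fewer, against 25.7% and 9.35% of the 14452 genes tested. Between mature adult and infant libraries 4 were higher (S1pr1, Spns2, Plpp1 and Plpp3) and 0 lower, against 30.0% and 13.8% of all genes. No member passed on both scales in either direction. Among all genes 1.13% were higher and 9.27% lower on both scales in young adult libraries, and 1.45% were higher and 13.8% lower in mature adult libraries. At an unadjusted p under 0.05 limma counted 7 of 7 members scaled and 2 unscaled for young adult against infant libraries, where 44.5% and 33.3% of all genes passed. For mature adult against infant libraries it counted 5 scaled and 2 unscaled, where 51.1% and 42.2% of all genes passed. The median log2 difference of the 7 was 0.51 scaled and 0.10 unscaled in young adult, and 0.36 and -0.18 in mature adult libraries, where all genes had 0.13, -0.25, 0.14 and -0.31. Between mature adult and young adult libraries no member passed (1 scaled and 2 unscaled at an unadjusted p under 0.05), against 0.844% of all genes. The young adult and mature adult comparisons share the infant libraries.

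The 7 genes held 136 regions, and 70 of them (51.5%) were open in all 9 libraries, against 32.4% of all regions. A single region (0.735%) was open in all infant and no adult libraries, against 9.7% of all regions. Open in all adult and no infant libraries were 4 regions (2.94%), against 0.686%. These shares have no test, and regions of the same gene are not independent of each other. In width, 2 of the 70 regions open everywhere were wider and 2 narrower in young adult than in infant libraries, against 1.12% and 5.8% of 41144 such regions. Between mature adult and infant libraries 2 were wider and 8 narrower, against 1.92% and 16.4%. Centring on the library's median width changed this split: 5 of the 70 were wider and 1 narrower in young adult (all regions 3.1% and 2.1%), and 13 wider and 2 narrower in mature adult libraries (all regions 14.0% and 6.83%). Between mature adult and young adult libraries 0 of the 70 differed (2 at an unadjusted limma p under 0.05), against 0.0972% of all such regions.

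Genes whose scaled peak numbers followed a member most closely over the 9 libraries were found among 3802 genes with a mean of at least 5 peaks. S1pr1 was followed by Ppp1r16b (Pearson r = 0.986), Sh3rf1 (0.984) and Cipc (0.984). Spns2 was followed by Gfod1 (0.982), Zfp36l2 (0.974) and Dennd3 (0.973). The nearest to Plpp1 were Sptbn1 (0.99), Aff3 (0.986) and Plcb4 (0.985). For Plpp3 they were Flt1 (0.964), which encodes a VEGF receptor, Ehd4 (0.952) and Cdh5 (0.95), which encodes VE-cadherin of endothelial junctions. These values share the same libraries and the same scaling to list length and are a description. S1pr2, S1pr3 and Sphk1 had fewer than 5 peaks on average and were not compared.

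The wider pathway was represented by 37 other genes, of which 33 had a mean of at least 1 peak and were tested. In young adult libraries 9 were higher and 4 lower than in infant libraries after scaling, against 25.7% and 9.35% of all genes. In mature adult libraries 10 were higher and 6 lower, against 30.0% and 13.8%. The higher genes at each age included S1pr4, Sphk2, Cers5 and Degs1, which had 1 peak in every library, so those calls reflect list length alone. Unscaled, 8 of the 33 (24.2%) were lower at each adult age, against 17.5% of all genes in young adult and 29.4% in mature adult libraries, and 0 were higher, against 1.13% and 1.45%. At an unadjusted limma p under 0.05, 11 and 14 differed unscaled, against 33.3% and 42.2% of all genes. Lower on both scales were 4 (12.1%) in young adult and 6 (18.2%) in mature adult libraries, against 9.27% and 13.8% of all genes, and 0 were higher on both. These shares are near those of all genes, and the values that follow describe single genes, not the pathway. The median scaled difference of the 33 was 0.13 at each adult age, close to that of all genes. S1pr5, a receptor known from natural killer cells and brain, fell in mature adult libraries, with 1 peak in each, against 3, 3 and 4 in infant libraries (scaled log2 difference -0.92, limma adjusted p = 0.0111); young adult libraries had 2, 2 and 1. Mfsd2b, the S1P exporter of red cells and platelets, had 1 peak in every adult library against 2, 3 and 2 in infant libraries, and its fall passed at both adult ages (scaled adjusted p = 0.0105 in young adult and 0.0184 in mature adult libraries). It missed the threshold in mature adults without mature adult replicate 2 (adjusted p = 0.0518) or 3 (0.05), and without the narrow-peaked libraries (0.0549). Arrb2, an arrestin that takes part in receptor internalization, had 1 peak in every adult and 2 in every infant library. Its fall passed on both scales at both adult ages, but its numbers did not vary within an age, which can give a minor change a low p.

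The longer genes that fell showed it over many peaks. Tiam1, an activator of Rac1 downstream of S1P receptors, had 20, 19 and 16 peaks in young adult and 13, 15 and 16 in mature adult libraries, against 32, 31 and 29 in infant libraries. Its scaled differences were -0.32 (adjusted p = 0.0283) and -0.51 (adjusted p = 0.00267), and the first was lost with any infant library left out (adjusted p up to 0.0839). Cers6, a ceramide synthase, had 6, 7 and 8 peaks in young adult and 5, 6 and 6 in mature adult libraries, against 14, 12 and 12 in infant libraries (-0.41, adjusted p = 0.0213, and -0.58, adjusted p = 0.00381); the first was lost without infant replicate 1 (0.0718) or young adult replicate 2 (0.0537). Gna12, a G protein alpha subunit, had 7, 9 and 11 peaks in mature adult libraries, against 18, 18 and 17 in infant libraries (-0.43, adjusted p = 0.0298), a call lost with any infant library (0.0664 to 0.0836) with mature adult replicate 1 (0.0502) or 2 (0.0731), or with the narrow-peaked libraries (0.064) left out. S1pr4, a receptor of blood cells, and Sphk2, the other sphingosine kinase, had 1 peak in every library, so that their scaled differences reflect list length alone. Sgpl1, the lyase that breaks S1P down, had 2, 2 and 3 peaks in infant, 2, 2 and 1 in young adult and 2, 1 and 1 in mature adult libraries, with no call. Apom, the carrier of S1P on HDL, had no peak in any library.

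**Figure D5:**
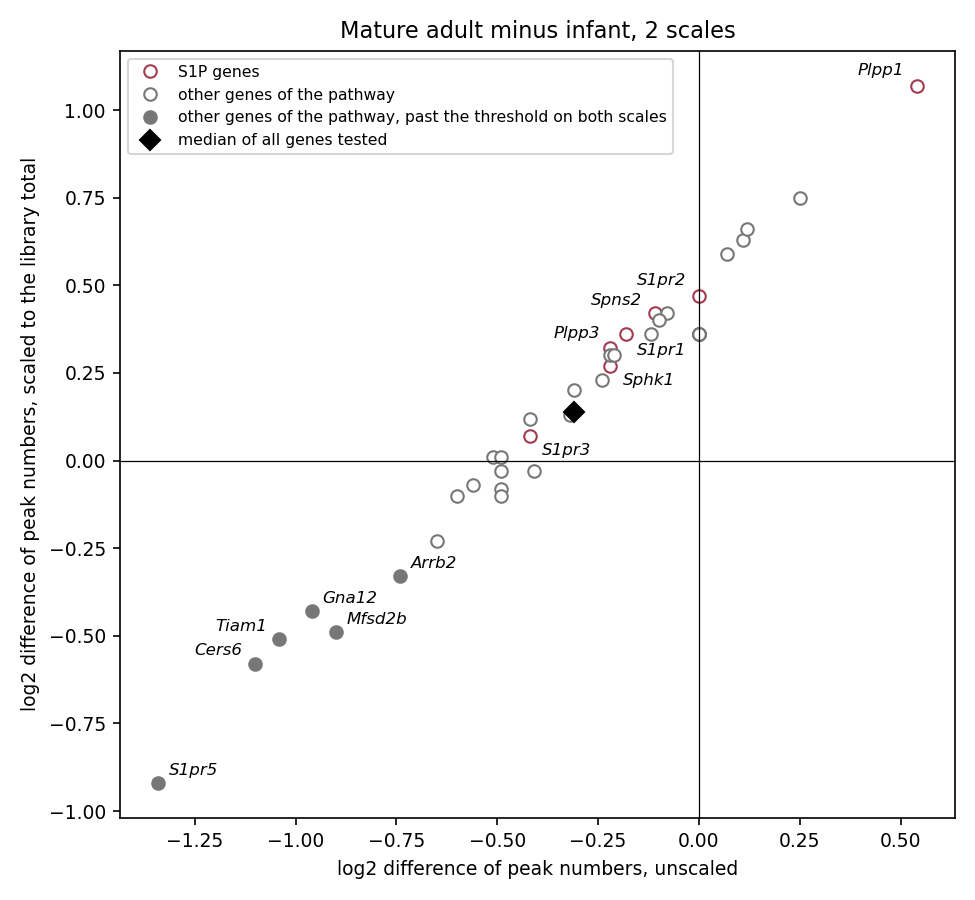
Log2 difference of peak numbers between mature adult and infant libraries, unscaled (x axis) against scaled to the library total (y axis), for the 7 S1P genes (red open circles) and 33 other pathway genes (grey; filled where both scales passed); the diamond is the median of all genes tested, at -0.31 and 0.14. Plpp1 lies farthest to the upper right at 0.54 and 1.07, and the 6 filled circles, from Arrb2 to S1pr5, lie below 0 on both axes.

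The labelled cell type was checked against markers. All 8 endothelial marker genes had peaks in every age group, with 181 to 194 peaks in all in infant, 158 to 172 in young adult and 142 to 170 in mature adult libraries, and 0 of 8 fell or rose on both scales. The sum over 10 fibroblast and mural markers was 33 to 38 peaks in young adult and 31 to 32 in mature adult libraries, against 76 to 82 in infant libraries; 5 of 8 tested were lower in young adult, and 4 lower and 1 higher in mature adult libraries, on both scales. Dcn had 1, 0 and 1 peaks in infant libraries and 0 in every adult library, and Tbx5 was at 0 in mature adults. Over 8 epithelial markers the sums were 25 to 32 in infant, 14 to 20 in young adult and 14 to 15 in mature adult libraries, with Sftpc at 0 throughout, Nkx2-1 in young adults and Krt8 in mature adults, and 1 of 5 tested was lower on both scales in mature adult libraries. Over 8 blood cell markers they were 12 to 13 in infant, 9 to 14 in young adult and 8 to 9 in mature adult libraries, with Itgam and Lyz2 at 0 throughout, Cd3e in both adult ages and Ms4a1 and Csf1r in mature adults, and 0 of 3 tested passed on both scales. Over 4 lymphatic markers they were 22 to 24 in infant, 18 in young adult and 17 to 19 in mature adult libraries, with Pdpn at 0 throughout, and 1 of 3 tested was lower on both scales in young adult libraries. The part of these other cell types in the results was not tested.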

How the data were processed

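Of each ATAC-seq library the authors deposited a list of peaks that holds, per the file headers, a chromosome, start and end and no other value (a position, not a score, signal or count). Per the submitters' processing notes, cutadapt, Bowtie2 and Picard were used, without versions, with build mm10. Which peak caller and threshold were used, and if reads were shifted for the transposase, is not given in the sources used here, nor is it stated whether starts count from 0 or 1. Intervals filled 1 to 14 rows and were counted once. What a repeated row stands for is not stated.

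A peak went to the protein-coding gene (RefSeq, GRCm38.p6) whose body held its centre, else to the nearest gene end within 100 kb. Numbers were tested as log2(number + 0.5), a scale on which changes of genes with few peaks come out too small, scaled to the library total and unscaled, for 14452 genes averaging at least 1 peak. The fit over all 9 libraries used limma 3.58.1 (trend, R 4.3.3) with Benjamini-Hochberg adjustment at 0.05 over all genes. Equal numbers within an age leave little spread, which can give minor changes a low p. Peaks overlapping by at least 1 bp over all libraries were merged into 126907 regions, and log2 covered bases were tested likewise in the 41144 regions open in all 9. Per 100 kb means per DNA in which a peak would go to that gene. The tests were checked on simulated data for mature adult against infant libraries. Of peak numbers changed 2-fold, 34% were called, and of those changed to 0.5 of their value 18.2%. For widths it was 38% at 1.5-fold and 32% at 0.667-fold. Among unchanged features 0.0514% of genes and 0.00488% of regions were called. The simulation changed few features and let unchanged peak numbers follow list length. In the data 6342 genes were called in this comparison, so these rates need not hold there. S1pr4, with 1 peak in every library, was called after scaling (limma adjusted p = 0.000134), a kind of call the simulation could not show. Since many changed features were missed, a difference that did not pass does not show that a gene or region is unchanged. Python 3.11.15, pandas 2.3.3 and matplotlib 3.10.9 did the rest.

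The genes and lists were chosen with earlier results of these data known. Named were all 7 members, pathway genes that passed on both scales with 6 fixed ones, the 3 genes most like each member with at least 5 peaks, regions open in all of 1 age class and none of the other, and regions at gene starts. Replicate numbers were not used as pairs: correlations of same-numbered libraries' deviations ran from -0.1669 to 0.1673.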

Additional observations from a re-analysis of the deposited data

How the results depend on the processing

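Of the alternatives to single values, a pseudocount of 1, no filter on low numbers and limma without trend ended none of the 48 gene calls or misses each was run on. Direction depended on scaling. Unscaled, the called S1pr1 differences were -0.18 in young adult and -0.18 in mature adult against infant libraries, Spns2 was at -0.11 and Plpp3 at -0.22 in mature adult libraries. With young adult replicate 3 and mature adult replicate 1 also left out they were -0.17, -0.12, -0.11 and -0.17. The S1pr1 call in young adults was lost when every deposited row was counted (adjusted p = 0.0555) or only peaks within 10 kb were used (0.0746), the Spns2 call in young adults with equal numbers of widest peaks (0.0645), and the Plpp3 call in mature adults under each of these 3 (0.073, 0.23 and 0.357). Peaks inside genes only ended the S1pr1 calls (0.533 and 0.121) and the Plpp3 call (0.458). Equal numbers of widest peaks ended the calls of S1pr2 in young adults (1.0), S1pr5, Mfsd2b, Gna12, Sphk2 and, in young adults, Cers6. Counting every deposited row ended those of Mfsd2b in young adults (0.116), Gna12 in mature adults (0.348), S1pr4 and Sphk2, and peaks within 10 kb that of Cers6 in young adults (0.0689). Calls were gained for S1pr2 in mature adults with every row (0.0411) or peaks inside genes only (0.0318), for S1pr3 in young adults with the widest peaks (0.0348), and for Sphk1 in young adults within 10 kb (0.0291). Where neither fit passed, a change of sign was not counted.

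Genes called numbered 5058 in young adult and 6342 in mature adult against infant libraries, and 122 between the adult ages. The first count was 2689 unscaled, 1392 with equal numbers of widest peaks, 2355 with every deposited row, and 2464 unscaled without the 2 libraries, with 4399 to 5439 over fits leaving out 1 library. The second was 2267 with the widest peaks and 4022 unscaled without the 2 libraries (5311 to 6885 leaving out 1). The third was 574 without the 2 libraries and 491 unscaled without them (99 to 425, the highest without young adult replicate 3). Regions called in width numbered 2848, 7524 and 40, with 1171 to 3325, 3176 to 9312 and 0 to 514 leaving out 1 library. Between adult ages they were 90 by the widest single peak, 16 in regions with at most 1 peak per library and 491 without the 2 libraries. The replicate number as a block, which only shares a number, gave 4875, 6049 and 66 genes and 1635, 5779 and 0 regions. It ended the S1pr2 call (0.0509) and made a call of Sphk1 in young adults (0.0166), and it ended the Tiam1 call in young adults (0.0648) and 6 width calls: 2 at S1pr1, 2 at Spns2 and 2 at Plpp3. It changed no other call.

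The 1 infant-only region was 0 with the widest peaks and 2 without the 2 libraries, and 1 to 4 leaving out 1 library. The 4 adult-only regions were 8 with the widest peaks, 3 where peaks had to cover at least 25% of a region, and 4 or 5 leaving out 1 library. Causes were not tested. Depth is unknown, the lists give no signal over background, and 3 libraries per age limit the precision.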
